A study of Mus musculus with 7 samples.

Results

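The genes described are 35 genes of the endoplasmic reticulum (ER) that fold newly made secreted proteins, sense the folding load or load collagen into transport vesicles. They were picked by name from the 52459 gene names of the count table, for their known function but with earlier results of these data known. All 35 were found and all passed the filter on low counts, which kept 13367 genes in all. By role they were 8 lumenal chaperones and cochaperones, 6 lectin chaperones and disulphide isomerases, 4 genes of ER-associated degradation (ERAD), 6 stress sensors and transcription factors, 2 translocon subunits, 5 genes of the COPII vesicle coat and collagen export, and 4 collagen folding genes.

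Procollagen enters the ER through the Sec61 channel, is folded and held by chaperones, isomerases and collagen-specific helpers, and leaves in enlarged COPII vesicles, while chains that fail to fold are returned to the cytosol and degraded. The unfolded protein response matches this machinery to demand through 3 membrane sensors, IRE1 (Ern1), PERK (Eif2ak3) and ATF6. Chondrocytes, the cells of cartilage, secrete large amounts of type II collagen and depend on this route, and loss of several of its genes causes skeletal disease.

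RNA was sequenced in bulk from mouse chondrocytes taken from the articular cartilage of the femoral head and kept in primary culture. Cells received vehicle (2 libraries, replicates 1 and 2), recombinant TGFβ1 at 5 ng/ml (2 libraries, replicates 1 and 3) or recombinant BMP2 at 100 ng/ml (3 libraries, replicates 1 to 3), each for 24 h in medium with serum. Both ligands belong to the TGFβ superfamily but signal through different receptors and SMAD proteins. The labels give neither the age nor the strain of the mice, nor whether replicates came from separate animals or cultures, so p-values measure only the spread between these libraries, which may be technical. The design compares each ligand with vehicle and the ligands with each other, and the 2 vehicle libraries are shared by both comparisons with vehicle.

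Total counts ranged from 6747997 to 18047765, with the 2 TGFβ1 libraries the deepest, and the lowest count of any of the 35 genes in any library was 121. Chondrocyte markers were abundant in every library, with Col2a1 the highest, at a summed 48549 to 48872 CPM, counts scaled to a common library size, in vehicle, 32607 to 38574 with TGFβ1 and 42622 to 49499 with BMP2. Summed markers of osteoblasts (8 genes, none of them at 0 in every library, Col1a1 highest) were 942 to 970.3 CPM in vehicle, 1604 to 1777 with TGFβ1 and 998 to 1088 with BMP2, and those of plasma cells, another secretory cell type (8 genes, none of them at 0 in every library, Sdc1 highest), were 42.4 to 52.4, 71.0 to 75.7 and 48.5 to 57.3 CPM. Markers of adipocytes (5 genes, Fabp4 highest) and muscle (6 genes, Tnnt3 highest, Myh4 at 0 in every library) were also higher with TGFβ1, at 49.9 to 57.0 and 36.7 to 48.8 CPM against 4.81 to 8.37 and 8.96 to 19.6 in vehicle. Osteoclast markers (7 genes, Calcr at 0 in every library) were 122 to 125.4 CPM with TGFβ1 against 89.5 to 94.4. Leukocyte markers (8 genes, Cd3e at 0 in every library) overlapped, at 19.4 to 29.1 against 19.7 to 28.3. Fibroblast markers (7 genes, Clec3b at 0 in every library) were 14.1 against 12.9 to 13.5. The part of these markers in the results below was not tested. In the TGFβ1 libraries short transcripts had higher values as a class: relative to vehicle the median log2 fold change was 2.86 over 674 genes with a principal transcript of up to 750 nt and -0.44 over 2501 genes above 5000 nt, against medians between -0.06 and 0.08 for all length classes with BMP2. Both TGFβ1 libraries carried this trend, so ligand and trend cannot be told apart. Fold changes with TGFβ1 are therefore given with a second value, from a fit that takes out each library's trend with the length and GC content of transcripts, called the offset below. CPM and CPM per kilobase are without it.

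Promoters of ER chaperone genes are known for the ER stress response element (ERSE), which is bound by ATF6 together with NF-Y and by XBP1. RefSeq promoter sequences (250 bases before to 50 bases after the start, build GRCm38.p6) were found for 29 of the 35 genes and not for Atf6, Creb3l1, Sec61a1, Fkbp10, Hyou1 and Manf. The ERSE, spelled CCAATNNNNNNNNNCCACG and searched on both strands, occurred in 7 of these 29 genes (24.1%) and in 37 of the 27025 genes with a promoter sequence (0.137%). The bases before the start are shown for 3 of the 7 genes, Hspa5, Canx and Pdia6. With TGFβ1 Pdia6 was called as risen, Canx as fallen, and Hspa5 was not called. Each sequence is read 5′ to 3′ on the strand of the gene. Capitals mark the ERSE, and in Hspa5 also the upstream element described next.
Hspa5, chr2:34771840-34772089, plus strand: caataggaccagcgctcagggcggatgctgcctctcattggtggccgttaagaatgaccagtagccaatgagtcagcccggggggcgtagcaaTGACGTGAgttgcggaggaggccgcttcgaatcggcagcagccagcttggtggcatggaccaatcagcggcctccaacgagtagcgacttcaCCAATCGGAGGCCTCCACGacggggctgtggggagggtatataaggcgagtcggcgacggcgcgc
Canx, chr11:50325674-50325923, minus strand: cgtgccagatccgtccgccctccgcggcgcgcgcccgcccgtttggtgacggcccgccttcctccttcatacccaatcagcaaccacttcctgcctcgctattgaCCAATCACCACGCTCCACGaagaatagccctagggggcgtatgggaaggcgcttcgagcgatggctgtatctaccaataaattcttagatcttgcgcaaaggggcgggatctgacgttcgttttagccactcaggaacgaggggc
Pdia6, chr12:17266339-17266588, plus strand: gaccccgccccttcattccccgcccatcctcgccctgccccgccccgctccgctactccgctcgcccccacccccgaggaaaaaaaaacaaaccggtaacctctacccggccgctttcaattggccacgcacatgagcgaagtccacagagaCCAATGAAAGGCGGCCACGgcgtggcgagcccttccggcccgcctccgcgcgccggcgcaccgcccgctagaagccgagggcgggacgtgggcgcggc

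The remaining ERSE matches are shown with 15 bases on each side, to compare the 9 variable bases between the fixed ends. Hsp90b1 held 2 matches, 1 of them on the opposite strand, and the match of Calr was also on the opposite strand, so that these read CGTGG first.
Hsp90b1, chr10:86705623-86705671, minus strand: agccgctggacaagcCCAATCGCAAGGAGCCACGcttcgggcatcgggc
Hsp90b1, chr10:86705518-86705566, minus strand: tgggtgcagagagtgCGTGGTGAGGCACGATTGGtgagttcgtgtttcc
Dnajc3, chr14:118937812-118937860, plus strand: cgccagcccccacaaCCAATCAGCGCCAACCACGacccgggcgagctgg
Calr, chr8:84847060-84847108, minus strand: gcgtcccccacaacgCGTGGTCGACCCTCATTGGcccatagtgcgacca
Syvn1, chr19:6046517-6046565, plus strand: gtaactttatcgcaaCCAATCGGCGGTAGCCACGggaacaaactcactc
The compact form ERSE-II, spelled ATTGGNCCACG, occurred in 2 of the 29 genes (6.90%), Herpud1 and Dnajb11, against 12 of 27025 (0.0444%). The unfolded protein response element (UPRE), spelled TGACGTGG or TGACGTGA, occurred in 3 (10.3%), Hspa5, Sec23a and Sec24d, against 1.22% of all genes. It contains no ERSE, but the form ending in TGG holds CCACG, the last 5 bases of the ERSE, on the other strand. That 5-base element alone occurred in 22 of the 29 genes (75.9%) and in 35.5% of all genes, and the cyclic AMP response element TGACGTCA in 0 of 29 and in 2.03% of all genes. The matches of Dnajb11 and Sec23a lay after the start, and those of Herpud1 and Sec24d before it, as shown here with capitals on the ERSE-II and the UPRE.
Herpud1, chr8:94386362-94386402, plus strand: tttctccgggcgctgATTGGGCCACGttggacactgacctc
Sec24d, chr3:123267455-123267492, plus strand: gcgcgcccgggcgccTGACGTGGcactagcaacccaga
Of the 7 genes with an ERSE, Pdia6 rose with TGFβ1 and Dnajc3, Canx and Syvn1 fell, with tests given below. Hspa5, Hsp90b1 and Calr had negative log2 fold changes (-0.39, -0.08 and -0.14) that did not pass the test. That of Hspa5 was close to those of Dnajc3 (-0.40) and Syvn1 (-0.36), and differences between genes were not tested.

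Levels can be compared between genes only per length, here as CPM per kilobase of the deposited gene length. In vehicle Serpinh1, which encodes the collagen chaperone HSP47, stood first at 1691 ± 130.1 CPM per kb (SD, n = 2), ahead of P4hb at 551 ± 20.2 and Hspa5 at 317 ± 49.5. P4hb encodes protein disulphide isomerase, which is also a subunit of collagen prolyl hydroxylase, and Hspa5 encodes the Hsp70 chaperone BiP. Next came Pdia3 at 235 ± 4.18, Calr at 168 ± 16.4 and Hsp90b1 at 161 ± 0.613 CPM per kb, and Calr and Hsp90b1 did not differ beyond their spread. At the other end the 3 sensors were low, with Ern1 at 6.98 ± 0.575, Atf6 at 4.73 ± 0.159 and Eif2ak3 at 4.65 ± 0.804 CPM per kb. With BMP2 the same 3 genes led, at 1764 ± 182.1 for Serpinh1, 657 ± 19.1 for P4hb and 358 ± 34.5 for Hspa5 (n = 3). With TGFβ1 the order at the top was Fkbp11 at 972.5 ± 94.5, Serpinh1 at 965 ± 95.9 and Sec61b at 896 ± 14.2 CPM per kb (n = 2), with Fkbp11 and Serpinh1 within their spread of each other. That order turned with the length used: per kilobase of principal transcript Sec61b was first at 2019.8, ahead of Serpinh1 at 1037 and Fkbp11 at 968.6. Fkbp11 was the 21st and Sec61b the 12th of the 35 genes in vehicle.

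**Figure D1:**
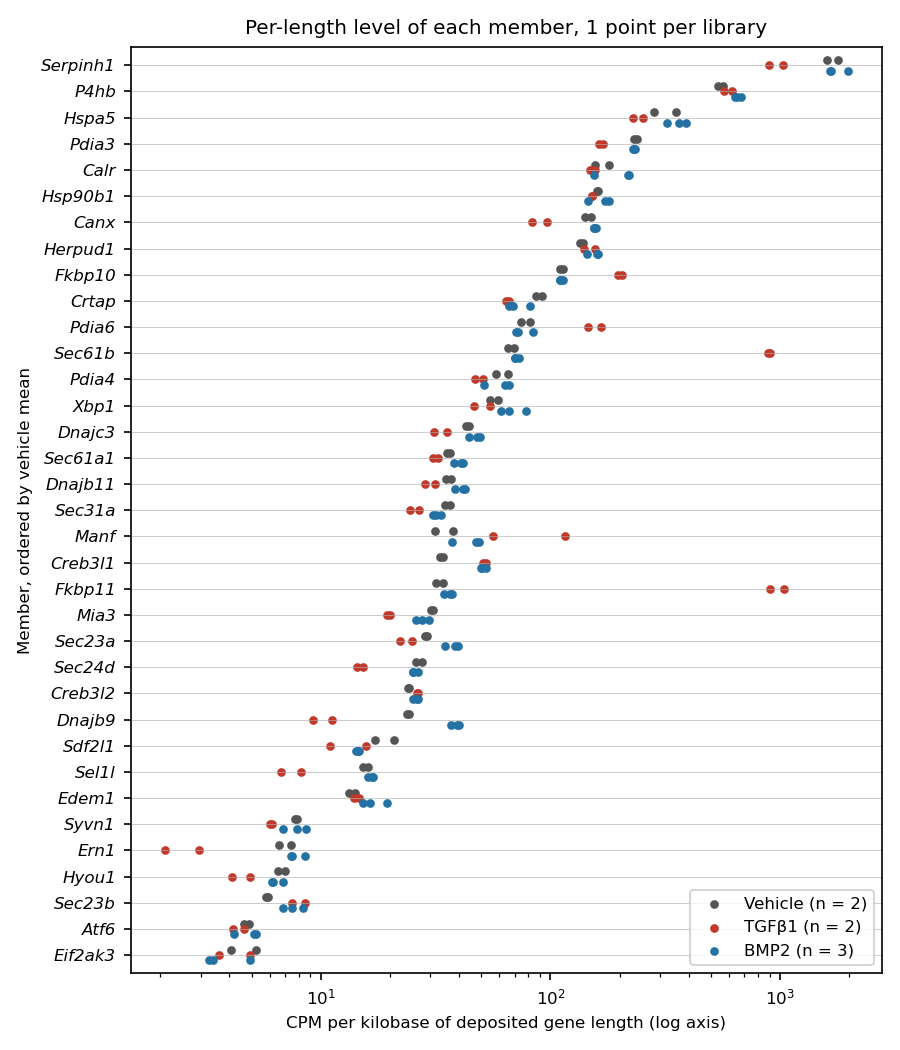
Level of each of the 35 genes in CPM per kilobase of deposited gene length (horizontal, log axis), 1 point per library, ordered by the vehicle mean. Serpinh1 leads in vehicle at 1691 CPM per kb and the sensors Atf6 and Eif2ak3 are lowest, while Fkbp11 and Sec61b move from 33.0 and 67.6 CPM per kb in vehicle to 972.5 and 896 with TGFβ1.

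With TGFβ1, 7 of the 35 genes rose and 14 fell relative to vehicle, at an adjusted p under 0.05 in edgeR's quasi-likelihood test. Over all tested genes 30.4% rose and 25.8% fell, so that the share that rose (7 of 35) was below and the share that fell (14 of 35) above that of all genes, with no test of either. The median log2 fold change of the 35 genes was -0.27, beside -0.02 over all tested genes. With the offset 10 rose and 17 fell, beside 24.9% and 26.3% of the genes tested with it, and the median was -0.28 beside -0.07. Of the 35 genes 20 had the same call, rose or fell, in both fits. The genes' summed level was 13263 and 13519 CPM in vehicle and 12754 and 12945 with TGFβ1. Large opposite changes of single genes enter that sum. The short transcripts Sec61b and Fkbp11 had means of 86.0 and 24.1 CPM in vehicle and 1139 and 711 with TGFβ1. Serpinh1 went from 4130 to 2358 CPM. In bulk RNA, fewer cells that express a gene and less of its RNA per cell cannot be told apart.

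**Figure D2:**
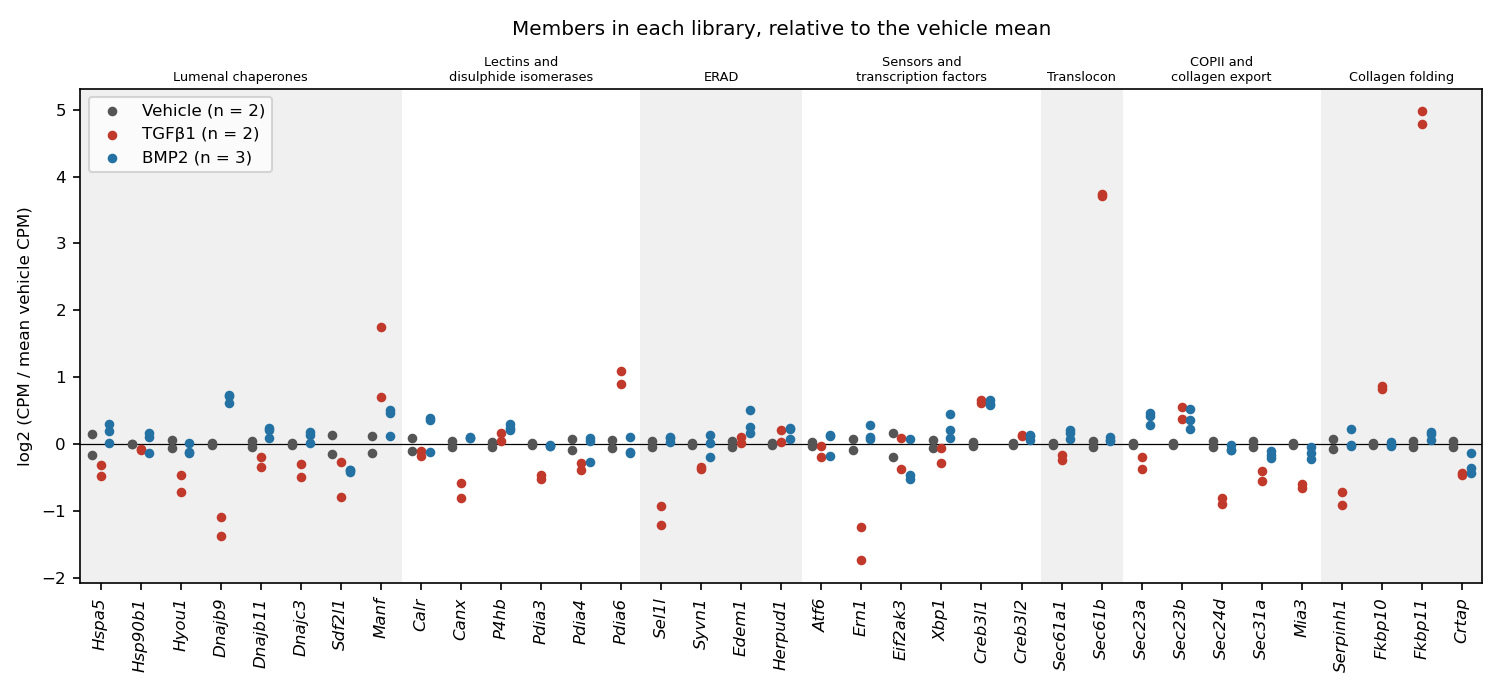
Each library's level of the 35 genes as log2 of its CPM over the vehicle mean (vertical), by role, with 1 point per library for vehicle, TGFβ1 and BMP2. The TGFβ1 points of Fkbp11 and Sec61b lie far above all others, those of Dnajb9, Sel1l and Ern1 lie below every vehicle and BMP2 point, and the 3 BMP2 points of Dnajb9 lie above vehicle.

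**Figure D3:**
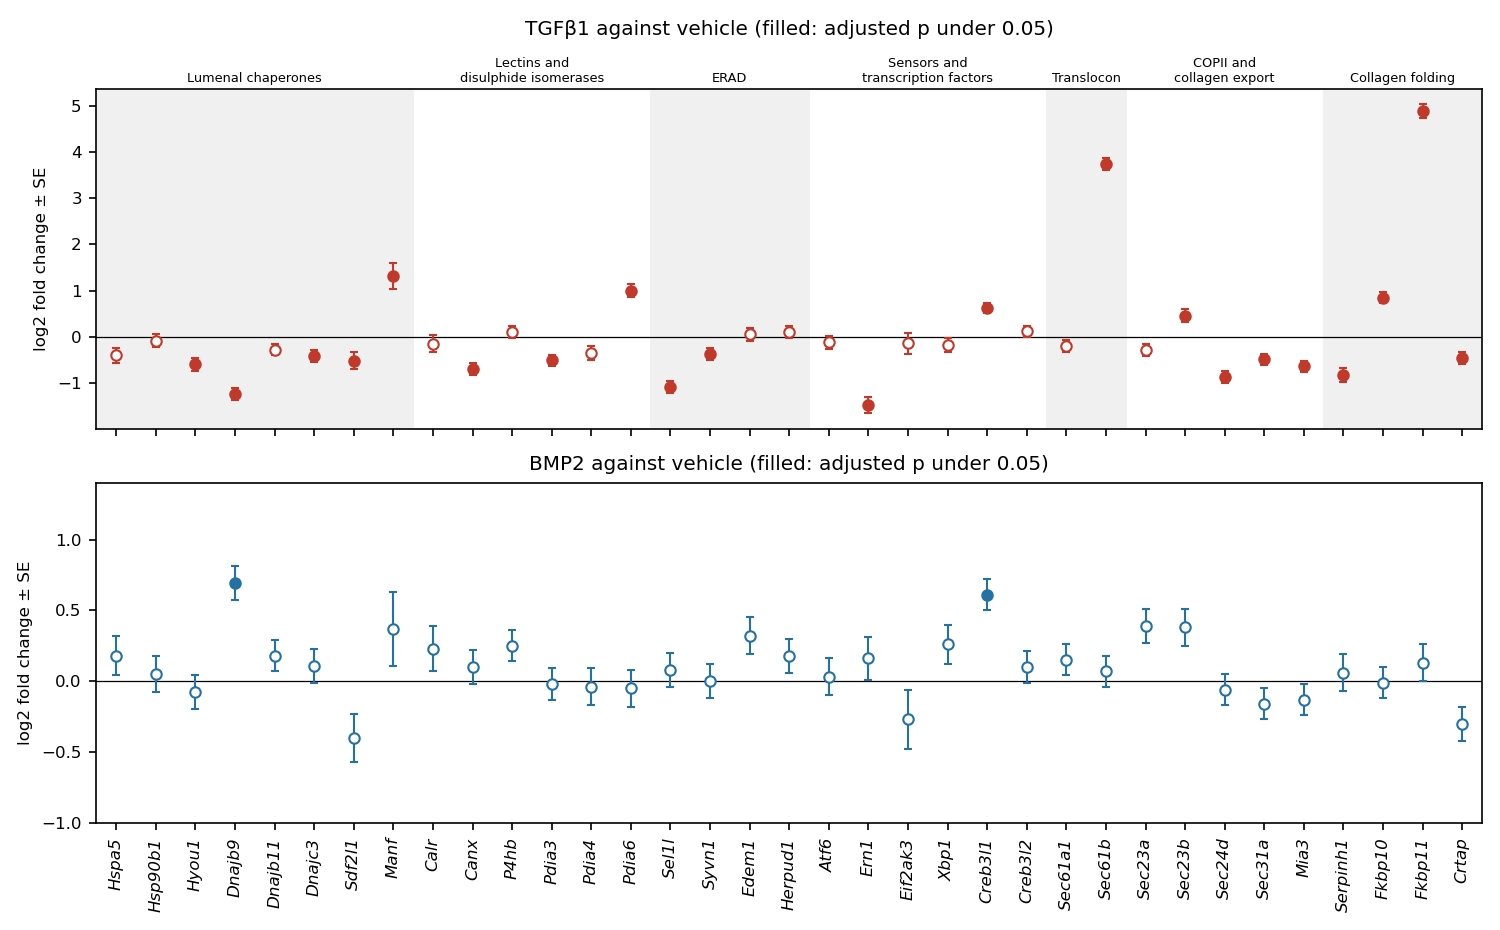
Fitted log2 fold change with its standard error (vertical) for TGFβ1 against vehicle (n = 2 and 2) and BMP2 against vehicle (n = 3 and 2), filled where the adjusted p was under 0.05. TGFβ1 has 21 filled points, from -1.47 for Ern1 to 4.88 for Fkbp11, and BMP2 has 2, Dnajb9 and Creb3l1, on a narrower axis.

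Among the 8 lumenal chaperones, 4 fell with TGFβ1, 1 rose and 3 did not pass the test. Dnajb9 encodes ERdj4, a BiP cochaperone that also restrains IRE1. Its level was 60.4 and 61.8 CPM in vehicle, 23.5 and 28.6 with TGFβ1, and 93.9, 100.0 and 101.8 with BMP2. The 3 groups did not overlap, with TGFβ1 lowest and BMP2 highest. The fall with TGFβ1 was -1.23 on the log2 scale (SE 0.13, adjusted p = 2.32e-05 in edgeR), and -1.16 with the offset. Hyou1, a large Hsp70-like protein that helps BiP exchange its nucleotide, was at 46.9 and 50.7 CPM in vehicle and 29.6 and 35.4 with TGFβ1, and fell by 0.59 (SE 0.13, adjusted p = 0.00342 in edgeR), or -0.55 with the offset. Its BMP2 libraries, at 44.3, 44.9 and 49.5 CPM, overlapped vehicle.

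Dnajc3, a cochaperone that also inhibits PERK-family kinases, and Sdf2l1, a component of BiP complexes, were the less firm falls. Dnajc3 was at 223 and 229.7 CPM in vehicle and 161 and 183 with TGFβ1 (log2 fold change -0.40, SE 0.13, adjusted p = 0.0222 in edgeR). With the offset its value was -0.09 (adjusted p = 0.546), and without TGFβ1 replicate 1, vehicle replicate 1 or vehicle replicate 2 the adjusted p was 0.113, 0.062 and 0.113. Sdf2l1 has a short principal transcript of 1108 nt, a class whose genes were raised in the TGFβ1 libraries, yet it was at 23.1 and 19.0 CPM in vehicle and 17.4 and 12.1 with TGFβ1. Its log2 fold change was -0.51 (SE 0.18, adjusted p = 0.0371 in edgeR) and -1.97 with the offset. Without the offset the call was lost without TGFβ1 replicate 3 (-0.27, adjusted p = 0.234), without vehicle replicate 1 (0.177) and without BMP2 replicate 2 (0.0523) or 3 (0.0518), and in DESeq2 (0.0969).

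Manf, a small secreted protein that binds BiP and is released under ER stress, rose. It was at 132 and 111 CPM in vehicle and at 407 in TGFβ1 replicate 1 and 197.5 in replicate 3. Both TGFβ1 libraries lay above every vehicle and BMP2 library, but they differed from each other by 1.04 on the log2 scale, more than for any other of the 35 genes. Its log2 fold change was 1.32 (SE 0.28, adjusted p = 0.00248 in edgeR) and 1.15 with the offset. Hspa5 itself was at 1487 and 1191 CPM in vehicle, 1073 and 966 with TGFβ1, and 1359, 1649 and 1534 with BMP2. All TGFβ1 values lay below all vehicle values, but the difference of -0.39 did not pass the test (SE 0.16, adjusted p = 0.0518 in edgeR, and 0.173 with the offset). It did pass without TGFβ1 replicate 1 (-0.47, adjusted p = 0.0457), vehicle replicate 2 (-0.55, 0.043) or BMP2 replicate 1 (-0.39, 0.0193), in DESeq2 (-0.40, 0.0431) and with the offset on the deposited gene length in place of the principal transcript (-0.43, 0.0439). Hsp90b1, the ER Hsp90, had a log2 fold change of -0.08 with and without the offset and Dnajb11, another BiP cochaperone, of -0.27, neither called. With the offset Dnajb11 was called, at -0.35 (adjusted p = 0.0252).

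Of the 6 lectin chaperones and disulphide isomerases, 2 fell, 1 rose and 3 did not pass the test. Calnexin (Canx) and calreticulin (Calr) hold glycoproteins through the same sugar signal, one in the membrane and the other in the lumen. Canx was at 664 and 705 CPM in vehicle, 391.9 and 455 with TGFβ1, and 725, 739 and 729 with BMP2. The TGFβ1 libraries were the lowest and did not overlap the others (log2 fold change against vehicle -0.69, SE 0.13, adjusted p = 0.00108 in edgeR, and -0.45 with the offset). Calr had 518 and 452 CPM in vehicle and 427 and 452 with TGFβ1, a difference of -0.14 that did not pass the test, nor did the -0.28 with the offset (adjusted p = 0.219).

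Pdia3, the isomerase that works with both lectins, was at 729 and 748 CPM in vehicle and 513 and 534 with TGFβ1, and fell by 0.50 on the log2 scale (SE 0.12, adjusted p = 0.00501 in edgeR, and -0.51 with the offset). Pdia6, an isomerase that binds BiP and also acts on IRE1, went the other way. It was at 280.3 and 304 CPM in vehicle, 625 and 543 with TGFβ1, and 313, 269 and 265 with BMP2. Its TGFβ1 libraries stood above all 5 others, with a log2 fold change of 1.00 against vehicle (SE 0.14, adjusted p = 1.72e-04 in edgeR) and 0.88 with the offset. P4hb, at 1537 and 1618 CPM in vehicle and 1629.8 and 1775 with TGFβ1, and Pdia4, at 156.5 and 139.7 against 113 and 122, had log2 fold changes of 0.11 and -0.34 that did not pass the test. With the offset P4hb was at -0.10 (adjusted p = 0.527), so that its sign turned, and Pdia4 was called, at -0.38 (adjusted p = 0.0441).

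In ERAD, both partners of the core ubiquitin ligase fell and the other 2 genes did not pass the test. Sel1l, the membrane adaptor of that ligase, was at 138 and 131 CPM in vehicle, 57.7 and 70.3 with TGFβ1, and 143, 145 and 137 with BMP2. The TGFβ1 values were all below the rest, and against vehicle Sel1l fell by 1.07 on the log2 scale (SE 0.13, adjusted p = 6.29e-05 in edgeR) and -0.71 with the offset. Syvn1, the ligase HRD1, was at 37.6 and 37.0 CPM in vehicle and 28.7 and 29.4 with TGFβ1 (log2 fold change -0.36, SE 0.13, adjusted p = 0.0404 in edgeR, and -0.53 with the offset). That call was lost without any 1 of the 4 libraries compared, at adjusted p between 0.0781 and 0.122, and in DESeq2, at 0.123. Edem1, which marks misfolded glycoproteins for removal, and Herpud1, a scaffold of the ligase, had log2 fold changes of 0.06 and 0.12. With the offset Edem1 was called as risen, at 0.40 (adjusted p = 0.0365), but with the offset on the deposited length it was at 0.22 and not called (adjusted p = 0.221). Herpud1 turned to -0.22 with the offset (adjusted p = 0.19) and to -0.39 with that on the deposited length (adjusted p = 0.029).

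The 3 stress sensors did not behave alike. Ern1, which encodes IRE1α, was at 53.8 and 60.4 CPM in vehicle, 17.1 and 24.2 with TGFβ1, and 69.9, 61.4 and 60.3 with BMP2. Its TGFβ1 libraries lay below all others, and the fall of 1.47 on the log2 scale (SE 0.17, adjusted p = 4.21e-05 in edgeR, and -1.12 with the offset) was the largest of the 35 genes without the offset. Atf6 was at 42.7 and 44.7 CPM in vehicle and 42.8 and 38.2 with TGFβ1, a log2 fold change of -0.11 that did not pass the test and that turned to 0.36 with the offset (adjusted p = 0.044). With the offset on the deposited length it was 0.21 and not called (adjusted p = 0.218). Eif2ak3 was at 24.6 and 31.5 CPM in vehicle and 21.6 and 29.8 with TGFβ1, with overlapping groups and a log2 fold change of -0.13, and of 0.00 with the offset. Xbp1, the transcription factor whose mRNA IRE1 splices, had a log2 fold change of -0.17 that did not pass the test and of -0.43 with the offset (adjusted p = 0.0244). Counts per gene do not separate its spliced from its unspliced form.

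Creb3l1 and Creb3l2 encode the ER-anchored transcription factors OASIS and BBF2H7, which drive collagen secretion genes in bone and cartilage. Creb3l1 was at 88.4 and 85.5 CPM in vehicle, 132.8 and 136.7 with TGFβ1, and 130.5, 131.8 and 136.8 with BMP2. Both ligands stood above vehicle with no overlap, and TGFβ1 and BMP2 overlapped each other. The log2 fold change with TGFβ1 was 0.63 (SE 0.11, adjusted p = 8.28e-04 in edgeR) and 0.41 with the offset, and 0.16 (adjusted p = 0.284) with the offset on the deposited length. Creb3l2 was at 177 and 174 CPM in vehicle and 192 and 190.5 with TGFβ1, a log2 fold change of 0.13 that did not pass the test and of 0.52 with the offset (adjusted p = 0.00311). With the offset on the deposited length it was 0.29 and not called (adjusted p = 0.0543).

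The 2 subunits of the Sec61 channel took different values. Sec61b, the small β subunit, was at 83.3 and 88.6 CPM in vehicle, 1152 and 1126 with TGFβ1, and 89.3, 88.7 and 92.4 with BMP2. Its TGFβ1 libraries lay 13.2-fold above vehicle (log2 fold change 3.73, SE 0.13, adjusted p = 1.07e-08 in edgeR). Its principal transcript of 564 nt puts it among the short genes whose median was 2.86. With the offset the value was 1.71, and 2.53 with the offset on the deposited length, both past the threshold. Sec61a1, the large pore subunit, was at 239.9 and 247 CPM in vehicle and 218 and 207 with TGFβ1, a log2 fold change of -0.19 that did not pass the test and of -0.36 with the offset (adjusted p = 0.0271). The offset on the deposited length gave -0.21, not called (adjusted p = 0.156).

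In the COPII coat and collagen export group 3 genes fell, 1 rose and 1 did not pass the test. Sec24d, a cargo adaptor of the inner coat, was at 165 and 175 CPM in vehicle, 90.9 and 96.9 with TGFβ1, and 159.9, 160.3 and 167.5 with BMP2. Mia3, which encodes TANGO1, the receptor that links procollagen to the coat, was at 133 and 136 CPM in vehicle, 85.9 and 88.9 with TGFβ1, and 115, 123 and 131 with BMP2. Both fell below all other libraries with TGFβ1, Sec24d by a log2 value of -0.86 (SE 0.12, adjusted p = 1.41e-04 in edgeR, and -0.80 with the offset) and Mia3 at -0.63 (SE 0.12, adjusted p = 0.00119 in edgeR, and -0.63 with the offset). Sec31a, of the outer coat, was at 289.6 and 272.5 CPM in vehicle and 192 and 212 with TGFβ1 (log2 fold change -0.48, SE 0.12, adjusted p = 0.00782 in edgeR, and -0.44 with the offset).

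Of the inner coat paralogs Sec23a and Sec23b, only Sec23b passed the test, and the difference between the paralogs was not tested. Sec23b was at 36.2 and 37.2 CPM in vehicle and 47.4 and 54.0 with TGFβ1 and rose by 0.46 on the log2 scale (SE 0.14, adjusted p = 0.014 in edgeR, and 0.43 with the offset). That call was lost without TGFβ1 replicate 3 (adjusted p = 0.063), vehicle replicate 1 (0.113) or vehicle replicate 2 (0.0644). Sec23a, a known target of BBF2H7 in chondrocytes, was at 137 and 139.8 CPM in vehicle, 107 and 121 with TGFβ1, and 168.5, 191 and 186 with BMP2. The 3 groups did not overlap, but its difference of -0.28 between TGFβ1 and vehicle did not pass the test (adjusted p = 0.0809 in edgeR) and was -0.07 with the offset (adjusted p = 0.633).

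All 4 collagen folding genes were called with TGFβ1, 2 in each direction. Serpinh1, the collagen chaperone HSP47, was at 3905 and 4355 CPM in vehicle, 2192 and 2523 with TGFβ1, and 4823, 4069 and 4036 with BMP2. The TGFβ1 libraries were the lowest with no overlap, and Serpinh1 fell by 0.81 on the log2 scale (SE 0.15, adjusted p = 9.39e-04 in edgeR) and -1.13 with the offset. Crtap, a partner of the enzyme that hydroxylates selected collagen prolines, was at 153 and 162 CPM in vehicle and 114 and 117 with TGFβ1 (log2 fold change -0.45, SE 0.13, adjusted p = 0.0153 in edgeR, and -1.02 with the offset). Without the offset that call was lost without TGFβ1 replicate 1 (adjusted p = 0.0532) or vehicle replicate 2 (0.0973).

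The peptidyl-prolyl isomerases Fkbp10 and Fkbp11 rose. Fkbp10 encodes FKBP65, which acts with HSP47 on procollagen, and Fkbp11 encodes an ER membrane isomerase known from secretory cells. Fkbp10 was at 331 and 323 CPM in vehicle, 576.5 and 600.1 with TGFβ1, and 333, 323 and 322 with BMP2, and rose with TGFβ1 by 0.85 on the log2 scale (SE 0.12, adjusted p = 1.69e-04 in edgeR) and 0.57 with the offset. Fkbp11 was at 24.9 and 23.3 CPM in vehicle, 759.8 and 662 with TGFβ1, and 26.8, 25.2 and 27.2 with BMP2. Its 29.5-fold rise (log2 fold change 4.88, SE 0.15, adjusted p = 1.07e-08 in edgeR) was the largest of the 35 genes, and with a principal transcript of 734 nt it also belongs to the class of short genes. With the offset its log2 fold change was 2.77, and 2.98 with the offset on the deposited length, again the largest of the 35.

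**Figure D4:**
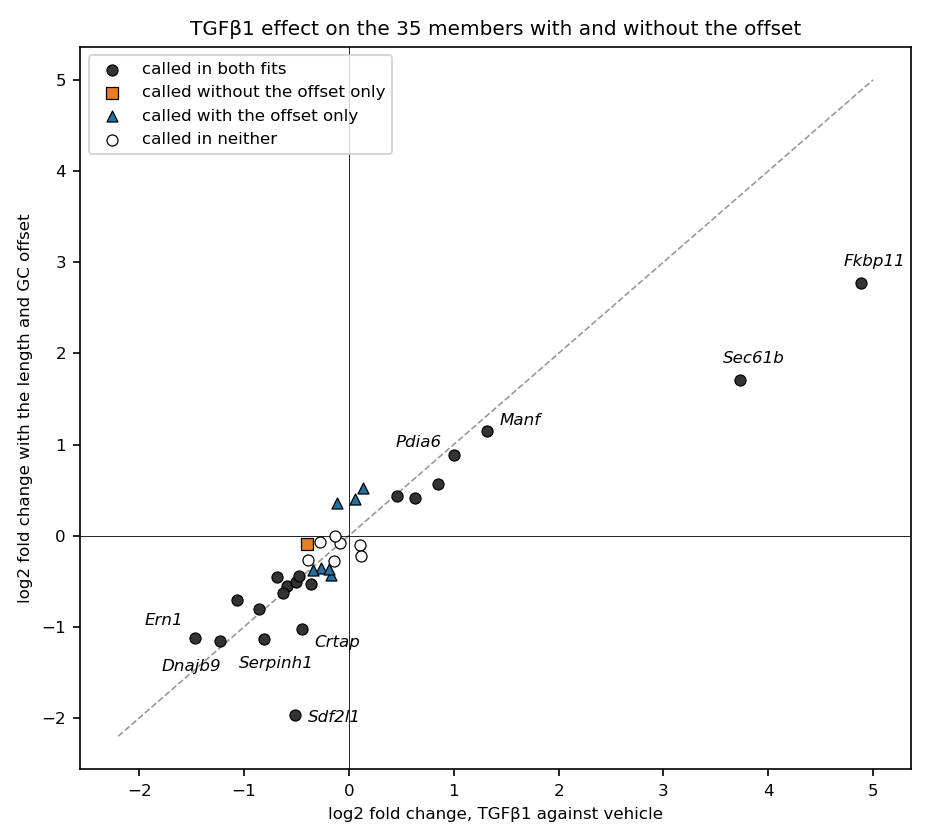
Log2 fold change of TGFβ1 against vehicle for the 35 genes, as fitted (horizontal) and with the length and GC offset (vertical), with the dashed line marking equal values. Fkbp11 and Sec61b, the shortest transcripts, stay positive at 2.77 and 1.71, and Sdf2l1, Crtap and Serpinh1 lie further below zero with the offset than without.

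Over 16 alternative settings, which include the offset, other scalings, DESeq2 and leaving out each library, 12 of the 21 calls with TGFβ1 held in every one. Of these, Fkbp10, Fkbp11, Manf, Pdia6 and Sec61b rose and Dnajb9, Ern1, Hyou1, Mia3, Sec24d, Sel1l and Serpinh1 fell. The share of all called genes that held in the same way was not counted. Upper-quartile scaling lowered the median of all tested genes from -0.02 to -0.20, and relative to vehicle 6 of the 35 genes then rose and 19 fell. Rises were then 24.0% of the calls among the 35 genes and 43.3% over all tested genes. Without BMP2 replicate 1, which enters the shared estimate of the spread, Dnajb11, Hspa5, Pdia4 and Sec23a were also called as fallen with TGFβ1, at adjusted p = 0.0495, 0.0193, 0.0184 and 0.0364 in edgeR. Over all tested genes 3707 of 12967 fell in that fit, beside 3450 of 13367 with every library. Between the 2 TGFβ1 libraries the widest log2 ratios of replicate 1 over replicate 3 were 1.04 for Manf, 0.52 for Sdf2l1 and -0.50 for Ern1.

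With BMP2, 2 of the 35 genes rose relative to vehicle, Dnajb9 and Creb3l1, and 0 fell, in edgeR at an adjusted p under 0.05. Over all tested genes 5.33% rose and 6.15% fell, and the share of 2 in 35 is near that background. At an unadjusted p under 0.05, 5 rose and 2 fell (Sdf2l1 and Crtap), and DESeq2 called 3 that rose and 0 that fell. Over all genes DESeq2 called 639 that rose and 546 that fell. The share of all genes at an unadjusted p was not counted, here or below. The median of the 35 genes was 0.10 beside 0.00 over all tested genes. With the offset 3 rose and 0 fell, beside 7.16% and 6.17% of all genes, and the third was Sec23a. Dnajb9 rose by 0.69 on the log2 scale (SE 0.12, adjusted p = 0.00413 in edgeR) and Creb3l1 by 0.61 (SE 0.11, adjusted p = 0.00409 in edgeR), from the CPM given above, and for both genes all 3 BMP2 libraries lay above both vehicle libraries. Each call needed both vehicle libraries and was lost when either was left out, which leaves 1 vehicle library. Without vehicle replicate 1 the log2 fold change was 0.68 for Dnajb9 and 0.64 for Creb3l1. Without vehicle replicate 2 these values were 0.71 and 0.59. Calls over all tested genes were also fewer in both fits.

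None of the 5 genes of the export route passed the test with BMP2 against vehicle in edgeR, and their median was -0.06. Sec23a was higher by 0.39 (SE 0.12, adjusted p = 0.0567 in edgeR) and Sec23b, at 43.0, 47.3 and 52.8 CPM against 36.2 and 37.2, by 0.38 (SE 0.13, adjusted p = 0.086 in edgeR). Sec23a passed in DESeq2 (0.42, adjusted p = 0.0349) and without either TGFβ1 library (0.0391 and 0.0388). Sec31a, at 243, 263 and 252 CPM against 289.6 and 272.5, had a log2 fold change of -0.16, and Mia3 of -0.13, both with all BMP2 libraries below both vehicle libraries, and Sec24d was at -0.06 with overlap. Among the other genes P4hb, at 1938, 1867 and 1830.5 CPM against 1537 and 1618, was 0.25 higher and did not pass. Crtap was at 144, 116 and 122 CPM, below both vehicle libraries, at a log2 fold change of -0.30 that did not pass. Serpinh1, Fkbp10, Pdia3, Pdia6, Canx and Sel1l had log2 fold changes between -0.05 and 0.10.

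BMP2 replicate 1 was lower than both replicates 2 and 3 for 17 of the 35 genes and higher than both for 13. The widest gap was that of Eif2ak3, at 29.6 CPM against 20.4 and 19.6 (log2 ratio to their mean 0.57), and next on the higher side came Xbp1 (0.30), Edem1 (0.30), Crtap (0.27) and Serpinh1 (0.25). On the lower side Calr, at 445 CPM against 634 and 625, had a ratio of -0.50, followed by Manf (-0.36), Pdia4 (-0.33), Atf6 (-0.31), Hsp90b1 (-0.27) and Hspa5 (-0.23). The chaperones lay on both sides, and Canx (-0.02), Sdf2l1 (0.02) and Pdia3 (0.02) had almost no gap. Over all genes the counts of replicate 1 differed from those of replicates 2 and 3 by a chi-square of 14.4 and 18.6 per gene, and those of replicates 2 and 3 from each other by 1.88. The same measure was 4.73 between the 2 vehicle libraries and 42.9 between the 2 TGFβ1 libraries, the highest value of the replicate pairs. Every result with TGFβ1 rests on that pair. The measure grows with depth, and the TGFβ1 libraries were the deepest, so its values do not rank the pairs by likeness. Without BMP2 replicate 1, 6 of the 35 genes were called against vehicle: Calr (0.38), Sec23a (0.44) and Sec23b (0.45) rose with Dnajb9 and Creb3l1, and Crtap fell (-0.40). Over all tested genes 810 of 12967 rose and 824 fell in that fit, beside 713 and 822 of 13367 with every library.

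Compared directly, 17 of the 35 genes were higher and 5 lower with BMP2 than with TGFβ1, beside 28.1% and 33.3% of all tested genes. The median was 0.32, beside -0.02 over all tested genes, and with the offset 22 were higher and 6 lower, beside 30.7% and 27.3%, with a median of 0.45 beside 0.08. The summed level with BMP2 was 14270.4 to 14658 CPM, above both TGFβ1 libraries. Of the genes higher with BMP2, the widest differences were in Dnajb9 (log2 1.92, SE 0.13, adjusted p = 3.41e-07 in edgeR, 3.78-fold), Ern1 (1.63, SE 0.16, adjusted p = 8.60e-06) and Sel1l (1.15, SE 0.12, adjusted p = 1.68e-05). With the offset these were 1.80, 1.41 and 0.88. Higher by 0.67 to 0.87 were Serpinh1, Sec24d, Canx and Sec23a, and with the offset by 1.23, 0.80, 0.54 and 0.45.

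This direct test also called genes, beside Sec23a, that neither comparison with vehicle had called. Hspa5 was 0.57 higher with BMP2 than with TGFβ1 (SE 0.14, adjusted p = 0.00559 in edgeR, and 0.45 with the offset), Dnajb11 0.45 (SE 0.11, adjusted p = 0.0051), Xbp1 0.43 (SE 0.14, adjusted p = 0.0214) and Sec61a1 0.35 (SE 0.11, adjusted p = 0.0203). Xbp1 lost its call without TGFβ1 replicate 1 (0.31, adjusted p = 0.14), and Sec61a1 without TGFβ1 replicate 3 (adjusted p = 0.0776) or BMP2 replicate 2 (0.0726). Sec31a (0.32, adjusted p = 0.0313) and Syvn1 (0.36, adjusted p = 0.0245) also passed, but without TGFβ1 replicate 1 the adjusted p was 0.147 and 0.0889, and without BMP2 replicate 3 it was 0.0765 and 0.097. Sec31a was also lost without BMP2 replicate 2 (0.10) or vehicle replicate 2 (0.0561), and Syvn1 without TGFβ1 replicate 3 (0.0592). Without BMP2 replicate 1, Calr (0.52, adjusted p = 0.00147) and Pdia4 (0.40, adjusted p = 0.00705) were called as well. Lower with BMP2 were Fkbp11 at -4.75, Sec61b at -3.66, Pdia6 at -1.05, Manf at -0.95 and Fkbp10 at -0.85. With the offset these were -2.59, -1.62, -0.89, -0.72 and -0.55, in the same order. The value of Manf was -0.34 without TGFβ1 replicate 1 and without the offset, and its call was lost. With both the offset and the replicate number as a block its call was lost too (-0.66, adjusted p = 0.0744 in edgeR). Creb3l1 did not pass this test, at a difference of -0.02 (SE 0.10).

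The other genes of the secretory pathway were taken from 7 lists by role, 125 tested of 129 listed. With TGFβ1 52 of the 125 rose and 26 fell in edgeR, with a median log2 fold change of 0.14, beside 30.4% and 25.8% of all tested genes and a median of -0.02. With the offset 42 rose and 30 fell, beside 24.9% and 26.3%. The split moved with the scaling, as it did over all tested genes. Rises were 66.7% of the calls under the TMM scaling and 50.6% (40 rose, 39 fell) under upper-quartile scaling. Over all tested genes they were 54.1% and 43.3% of the calls. With BMP2 5 rose and 0 fell against vehicle in edgeR, 12 and 0 at an unadjusted p under 0.05, and 6 and 0 in DESeq2. Over all genes DESeq2 called 639 that rose and 546 that fell. The share of 5 in 125 is not above the 5.33% of all tested genes that rose. The 5 calls in edgeR were all lost without vehicle replicate 1 or without vehicle replicate 2. Calls over all tested genes were also fewer in both fits. Between the ligands 30 were higher and 46 lower with BMP2, beside 28.1% and 33.3% of all tested genes, and 43 and 38 under upper-quartile scaling. Genes higher with BMP2 were then 53.1% of the calls, against 54.1% over all tested genes. Under the TMM scaling they were 39.5% against 45.7%.

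The remaining subunits of the translocon, signal peptidase and signal recognition particle had the most rises with TGFβ1, 14 of 23 with 2 that fell, and 14 and 0 with the offset in edgeR (14 and 1 at an unadjusted p under 0.05). Of all tested genes 30.4% rose and 25.8% fell, and 24.9% and 26.3% with the offset. Examples were the translocon-associated protein Ssr4 (log2 fold change 4.23, and 2.17 with the offset), the signal peptidase subunit Spcs1 (3.45 and 1.57) and the signal recognition particle protein Srp14 (3.42 and 1.53). Among the glycan genes Dad1, a subunit of oligosaccharyltransferase, rose by 5.01, and by 5.11 with the offset, whereas Ddost, another subunit, fell by 0.56 and by 0.91. For Dad1 the offset used a principal transcript of 3491 nt, in a length class with a median of -0.20 with TGFβ1. Whether the counts came from that transcript was not tested. In ERAD 6 of 16 rose and 1 fell, beside 30.4% and 25.8% of all tested genes. Selenok was at 2.62, and 2.32 with the offset. In the COPII list 6 of 24 rose and 8 fell, near the shares of all tested genes, with the GTPase Sar1a up by 1.14 in both fits and the coat-organising protein Tfg at -0.87, and -1.05 with the offset.

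Of the other 10 stress factors tested, 3 rose and 4 fell with TGFβ1, and with the offset 0 rose and 6 fell in edgeR, also at an unadjusted p under 0.05. The shares of all tested genes were 30.4% and 25.8%, and 24.9% and 26.3% with the offset. Atf4, the transcription factor downstream of PERK, fell by 0.57 on the log2 scale, and by 1.05 with the offset. Ddit3, which encodes CHOP, was at 1.17 (adjusted p = 0.00338 in edgeR), but at -0.85 with the offset and 0.30 with the offset on the deposited length, so that it has no direction here. Ero1l, the oxidase that recharges disulphide isomerases, fell with TGFβ1 by 1.20 (SE 0.13, adjusted p = 2.45e-05 in edgeR, and -0.93 with the offset) and rose with BMP2 by 0.57 (SE 0.12, adjusted p = 0.0109 in edgeR). The call with BMP2 was lost without vehicle replicate 1 (adjusted p = 0.0877) or 2 (0.149). Its mean was 314 ± 14.8 CPM in vehicle (SD, n = 2), 136 ± 11.5 with TGFβ1 (n = 2) and 468 ± 21.3 with BMP2 (n = 3), the same order of groups as Dnajb9.

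Among 16 other collagen-modifying genes 10 rose and 3 fell with TGFβ1, and 7 and 3 with the offset. Over all tested genes 30.4% rose and 25.8% fell, and 24.9% and 26.3% with the offset. The prolyl hydroxylase subunit P4ha2 rose by 1.50, and by 1.24 with the offset, and the lysyl hydroxylases Plod1 and Plod2 by 1.15 and 0.47, and by 0.95 and 0.61. The call of Plod2 was lost without vehicle replicate 1 (adjusted p = 0.129) or 2 (0.0708) and under upper-quartile scaling (0.109). P4ha1 was at 0.21 and did not pass the test in either fit. Ppib, which encodes the partner of Crtap cyclophilin B, was 2.28 higher, with 107 ± 1.67 CPM in vehicle and 521 ± 311.2 with TGFβ1 (SD, n = 2), and 0.35 with the offset (adjusted p = 0.212) but 2.04 with the offset on the deposited length (adjusted p = 2.52e-04). Of its exon bases 25.0% overlap Snx22, which lies on the opposite strand.

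**Figure D5:**
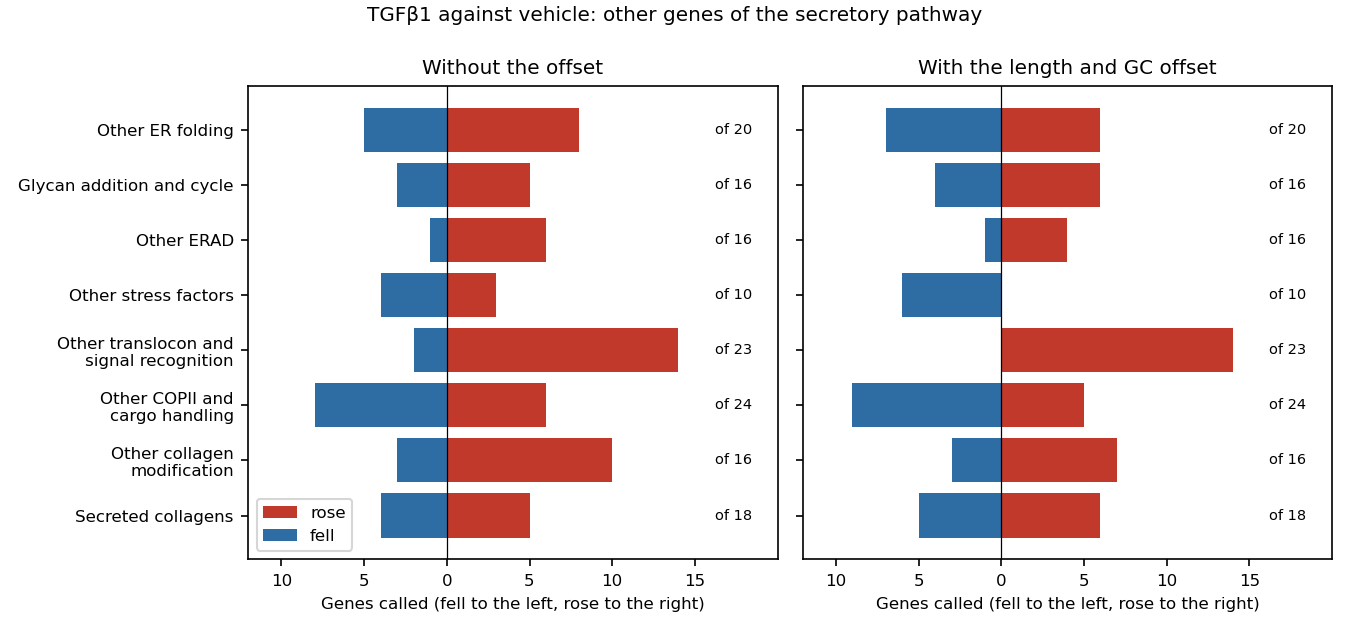
Number of other secretory pathway genes and secreted collagens that rose (right) or fell (left) with TGFβ1 against vehicle, by list, without (left panel) and with (right panel) the length and GC offset, with the number tested beside each bar. The translocon list has 14 rises in both panels, and the other stress factors go from 3 rises and 4 falls to 0 and 6.

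The collagens, the main cargo of this machinery, summed over 18 secreted collagen genes to 54855 and 54929.6 CPM in vehicle, 39912 and 46731 with TGFβ1, and 55705, 49332 and 50945 with BMP2. The TGFβ1 libraries had the lowest sums, without overlap. As raw shares of all counts, without the TMM scaling, the collagens took 5.96% and 6.22% in vehicle and 3.01% and 3.76% with TGFβ1, and the 35 genes 1.44% and 1.53% in vehicle and 0.961% and 1.04% with TGFβ1. On that scale both sets were lower with TGFβ1. With TGFβ1 5 of the 18 collagens rose and 4 fell, close to the 30.4% and 25.8% of all tested genes, and 6 and 5 with the offset. Col1a1 rose by 1.15, and by 1.24 with the offset, while the cartilage collagens Col27a1 (-2.32 and -2.05), Col9a1 (-1.75 and -1.78) and Col11a1 (-1.30 and -0.82) fell. Col2a1, the major cartilage collagen, was at 35505 ± 479.5 CPM in vehicle and 29574 ± 3713 with TGFβ1 (SD, n = 2), a log2 fold change of -0.26 that did not pass the test, but did without TGFβ1 replicate 3 (-0.39, adjusted p = 0.0138 in edgeR) and under upper-quartile scaling (-0.45, 0.0249). With BMP2 5 of the 18 rose and 0 fell in edgeR (6 and 2 at an unadjusted p under 0.05, and 6 and 0 in DESeq2), beside 5.33% and 6.15% of all tested genes, led by Col6a2 (1.22), Col10a1 (1.13), the marker of hypertrophic chondrocytes, and Col6a1 (0.92). Ctage5, the partner of TANGO1, rose by 0.40 (SE 0.11, adjusted p = 0.0401 in edgeR), a call lost without vehicle replicate 1 (adjusted p = 0.182) or 2 (0.278) and without BMP2 replicate 2 (0.12) or 3 (0.0761).

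Some of these values rest on exon overlaps that counting without strand would not resolve. Of the 35 genes, the share of exon bases that overlap a gene on the other strand was highest for Hsp90b1 (10.3%), Sec23a (8.90%), Manf (8.85%), Sec61a1 (8.16%), Eif2ak3 (8.05%) and Fkbp10 (6.58%).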

How the data were processed

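The deposited table holds whole-number counts per gene name for the 7 libraries and a gene length in nucleotides, both made by the authors. The submitters' processing notes name STAR 2.4.2a, cutadapt, featureCounts, Subread, DESeq2 and build mm10. The annotation, the strand setting and the rule for multi-mapped reads, not given in the sources used here, could shift counts of overlapping genes. Counts were fitted with edgeR 4.0.16 in R 4.3.3: filterByExpr (13367 genes), TMM scaling, 1 quasi-likelihood fit over all 7 libraries (4 residual degrees of freedom, common biological coefficient of variation 0.133), 2-sided tests, Benjamini-Hochberg adjustment across the tested genes, and calls at an adjusted p under 0.05. The script was tested on simulated data. CPM use TMM-scaled library sizes. The SE is the absolute log2 fold change divided by the square root of the F statistic. Replicates were compared by a chi-square over genes, and none agreed within sampling noise.

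The length and GC offset was built by lowess of log2 CPM (prior count 1, spans 0.15 for length and 0.3 for GC, 3 iterations) on the principal transcript in GENCODE annotation of GRCm38 (13228 genes). Of the gene names, 45707 matched as given, 2401 with another separator, 192 by a synonym, and 4159 did not match. An offset on the deposited length was added after the data had been seen. Other alternatives were DESeq2 1.42.0, its size factors, upper-quartile factors, no low-count filter, only the libraries compared, the replicate number as a block, and each library left out. The 35 genes and all lists were chosen with earlier results of these data known. Named are all 35 genes and, from each other list, a part of up to 3 called genes with the smallest p, beside Atf4, Ddit3, P4ha1, Plod2, Ppib, Col1a1 and Col2a1. Protein sequences were not analysed here.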

Additional observations from a re-analysis of the deposited data

How the results depend on the processing

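Of the 35 genes' log2 fold changes under the settings without the offset, 1287 kept their side of the threshold and their direction, 46 lost the call, 32 gained it and 0 reversed while called. Against vehicle the number called with TGFβ1 stayed within 1.5 times of 21, and between the ligands of 22. The number called with BMP2 against vehicle (2) was 1 with the replicate number as a block and 2 to 6 with 1 BMP2 library left out. Both calls were lost without either vehicle library, where calls over all tested genes were also fewer. The other secretory pathway genes called with BMP2 (5) were 8 with no low-count filter, 10 with only the libraries compared, 2 with the replicate block, 10 with the offset, 2 with offset and block, and 0 to 9 with 1 library left out. Directions of values called in 1 of the fits turned only with an offset: Atf6 with TGFβ1 (0.36), Ddit3 with TGFβ1 (-0.85, and -0.79 with the block) and between the ligands (0.60, and 0.62 with the block), and, on the deposited length, Herpud1 with TGFβ1 (-0.39) and Creb3l1 between the ligands (0.49). The cause was not tested.

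Deviations from the group means did not correlate positively between same-numbered libraries (correlations -0.152 to -0.0037). In a group of 2 libraries these deviations mirror each other, so this cannot decide whether the replicate numbers pair libraries. With the block, 6 of the 35 genes rose and 9 fell with TGFβ1, on 2 residual degrees of freedom. Over all 13367 tested genes 3496 rose and 2590 fell in that fit. Between the ligands 14 of the 35 genes were higher and 5 lower with BMP2, beside 3203 and 4084 of all tested genes. Per-length levels moved beyond 1 SD for 76 of 105 values with the principal transcript length and for 4 with DESeq2 size factors. Counting only bases before the start left 7 genes with an ERSE, 1 with an ERSE-II and 2 with a UPRE. A library left alone in its group is assumed to vary like the others, and with 2 or 3 libraries a group small changes can go unseen.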
